A study of Mus musculus with 12 samples.

Results

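The clustered protocadherins are cell adhesion proteins encoded in 3 neighbouring arrays of genes, called alpha, beta and gamma. They were chosen here by symbol, as every gene whose mouse symbol begins with Pcdha, Pcdhg, or Pcdhb followed by a digit. The reference annotation holds 58 such genes, and 57 of them had counts, out of 33560 genes with counts in every library. No member was among the 3342 genes listed without a value, and Pcdhgb8, annotated as a pseudogene, was not analysed here. The 57 genes comprise 14 of the alpha cluster, 22 of the beta cluster and 21 of the gamma cluster.

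RNA was measured in 12 libraries of neurons differentiated in culture from mouse embryonic stem cells and harvested at day 21. The wild-type (WT) neurons came from 3 cell lines. The knockout (KO) neurons came from 3 other lines that lack a microexon, a very short exon, of Daam1, which encodes a formin that assembles actin filaments. Each line gave a vehicle library, exposed to water, and an inhibitor library, exposed to 10 µM of the ROCK kinase inhibitor Y-27632, both for 2 h. This makes 4 groups of 3 libraries: WT vehicle, WT inhibitor, KO vehicle and KO inhibitor. How the lines were derived and whether each is a single clone is not given in the sources used here. The design text of the series mentions dissected hippocampus, whereas every sample label describes cultured neurons, and the latter were followed.

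In the alpha and gamma clusters, each gene has a large variable first exon with its own promoter, which is spliced to exons shared by the whole cluster, whereas each beta gene is a single exon. Single neurons are known to choose a few variable promoters each, largely at random, and the resulting set of proteins on the surface lets a neuron tell its own branches from those of others. The last genes of the alpha and gamma arrays, called C-type (Pcdhac1, Pcdhac2, Pcdhgc3, Pcdhgc4 and Pcdhgc5), are not part of this random choice and are expressed more uniformly within a cell type. The variable gamma genes fall into an A and a B class by sequence. In RNA from many cells, as here, a gene used by few cells at a high level and a gene used by many cells at a low level cannot be told apart, nor can fewer cells of a type be told from less RNA per cell.

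Library totals ran from 23253566 to 35012561 counts. Daam1 itself was not lower in KO neurons at the level of the whole gene, with 153.6 to 182.9 CPM (counts per 1000000 reads) in WT vehicle and 155.4 to 182.4 CPM in KO vehicle libraries, a measure that does not resolve the microexon. Of the glutamatergic markers, Slc17a6 reached 51.7 to 423.6 CPM, whereas Slc17a7 stayed at 0.599 to 2.04 CPM, and Gad1, a marker of GABAergic neurons, was at 86.7 to 259.6 CPM. The cultures were therefore not free of GABAergic transcripts. Earlier results of these data single out 3 libraries: KO inhibitor line 3, WT vehicle line 2 and WT inhibitor line 3. The summed level of 7 pan-neuronal markers was 1130, 3420 and 3599 CPM in these libraries and 4243 to 5098 CPM in the other 9. Summed markers of neural progenitors were 675.7, 256 and 293.4 CPM in the same libraries against 36.99 to 104 CPM in the other 9. Vim alone made up 578.4, 219.9 and 265.8 CPM of these 3 sums. Of the 6 progenitor markers, 6, 3 and 4 exceeded the other 9 in the respective libraries. All 6 mesenchymal markers exceeded those 9 in WT vehicle line 2 and WT inhibitor line 3. Their sums there were 1111 and 742.5 CPM, against 24.66 to 368.7 CPM in the 9. In KO inhibitor line 3 no mesenchymal marker exceeded those 9, and their sum was 66.51 CPM. Counts of members higher and lower and the cluster sums are given with and without the 3 libraries.

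All members lie on the plus strand of chromosome 18 in the mm10 build (GENCODE M21 annotation). The alpha genes span positions 36930184 to 37187661, the beta genes 37264938 to 37524479 and the gamma genes 37661793 to 37841873. The deposited tables give each gene a count and a cRPKM value, an expression level scaled by gene length and depth, and their ratio gives the length by which each count was divided. For the 3 gamma C-type genes this length was 99.7% to 99.8% of the annotated first exon, and for the 2 alpha C-type genes it was 99.8% and 100.7%. For gamma A genes the median was 95.2% of the first exon, for alpha variable genes 72.9% and for gamma B genes 68.2%. Against whole transcripts with their shared exons, the median was 55.1% for gamma C-type and 34.0% for alpha variable genes. In alpha and gamma the length used thus matched the first exon more closely than the transcript, and the values below describe the choice of first exon. Variable exons of a cluster resemble each other in sequence, and how reads matching several members were assigned is not given in the sources used here.

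The alpha cluster was led by the C-type gene Pcdhac2 and by the variable genes Pcdha4 and Pcdha3. Pcdhac2, which is known for its role in the spacing of serotonergic axons, was at 9.08, 8.01 and 10.3 cRPKM in WT vehicle lines 1 to 3 and at 10.4, 10.1 and 8.87 cRPKM in WT inhibitor. In KO vehicle it was at 8.58, 8.5 and 11.5 cRPKM, and in KO inhibitor at 11.5, 10.4 and 2.37 cRPKM. KO inhibitor line 3 was the lowest, and the other 11 libraries lay between 8.01 and 11.5 cRPKM. The serotonergic markers were near 0 in every library, with Tph2 at 0.132 to 0.412 CPM and Slc6a4 at 0 to 0.103 CPM. Pcdhac2 was above Pcdha4 in 8 of 12 libraries, so the order of these neighbours varied between libraries.

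Pcdha4 had a mean of 9.45 ± 1.33 cRPKM (SD) and Pcdha3 one of 8.88 ± 1.37 cRPKM over the 11 libraries other than KO inhibitor line 3. Pcdha4 exceeded Pcdha3 in 11 of all 12 libraries. Pcdha5 and Pcdha12 followed at 5.95 ± 0.908 and 4.91 ± 0.722 cRPKM over the same 11 libraries. The other variable alpha genes had means over all 12 libraries from 0.0608 cRPKM for Pcdha8, with 0 to 6 counts per library, to 4.12 cRPKM for Pcdha2. Among these, 2 Ensembl identifiers share the symbol Pcdha11, and the second one, ENSMUSG00000007440, had a mean of 1.60 cRPKM. The other alpha C-type gene, Pcdhac1, was among the lowest members, at 0.07 to 0.31 cRPKM with 5 to 24 counts per library. The 2 alpha C-type genes thus differed 29.6-fold to 86.5-fold within a library.

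The highest gene of the beta cluster, Pcdhb9, had a mean of 5.43 ± 1.49 cRPKM (SD, n = 12), followed by Pcdhb7 at 4.76 ± 0.956, Pcdhb11 at 4.52 ± 0.875 and Pcdhb3 at 3.53 ± 0.709 cRPKM. Pcdhb9 was at 6.04, 5.02 and 7.65 cRPKM in WT vehicle lines 1 to 3 and at 7.31, 6.66 and 5.37 cRPKM in WT inhibitor. In KO vehicle it was at 5.92, 4.82 and 3.98 cRPKM, and in KO inhibitor at 5.86, 4.13 and 2.38 cRPKM. Every library of KO lines 2 and 3 was below every WT library, while both libraries of KO line 1 lay within the WT range. Pcdhb1 and Pcdhb4 were lowest of the cluster at 0.162 and 0.199 cRPKM, with 5 to 24 counts per library. The median beta gene had 2.09 cRPKM.

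The gamma cluster was dominated by a single C-type gene. Pcdhgc4, whose loss is known to reduce the survival of inhibitory interneurons, had 28.7, 28.7 and 32.4 cRPKM in WT vehicle lines 1 to 3 and 30.8, 32.8 and 25.2 cRPKM in WT inhibitor. In KO vehicle it had 29.6, 29.0 and 39.9 cRPKM and in KO inhibitor 38.2, 35.9 and 8.77 cRPKM. Without KO inhibitor line 3, its lowest library, at 25.2 cRPKM, was above the highest value of any other member in any of those 11 libraries, 11.6 cRPKM for Pcdha4. It was the highest of all 57 members in 11 of 12 libraries.

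Pcdhgc3 was high in 3 libraries. It had 4.97, 11.2 and 4.0 cRPKM in WT vehicle lines 1 to 3, 5.38, 5.30 and 9.52 in WT inhibitor, 4.44, 3.53 and 4.83 in KO vehicle, and 6.81, 4.76 and 18.9 in KO inhibitor. The high values are those of WT vehicle line 2, WT inhibitor line 3 and KO inhibitor line 3. These 3 libraries had lower pan-neuronal and higher progenitor sums, the latter mostly from Vim. Mesenchymal sums were above the other 9 libraries in the 2 WT libraries only. The part of those markers in the level of Pcdhgc3 was not tested. The other 9 libraries lay between 3.53 and 6.81 cRPKM. Pcdhgc5 was lower, at 1.25 to 2.60 cRPKM over the 12 libraries.

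**Figure D1:**
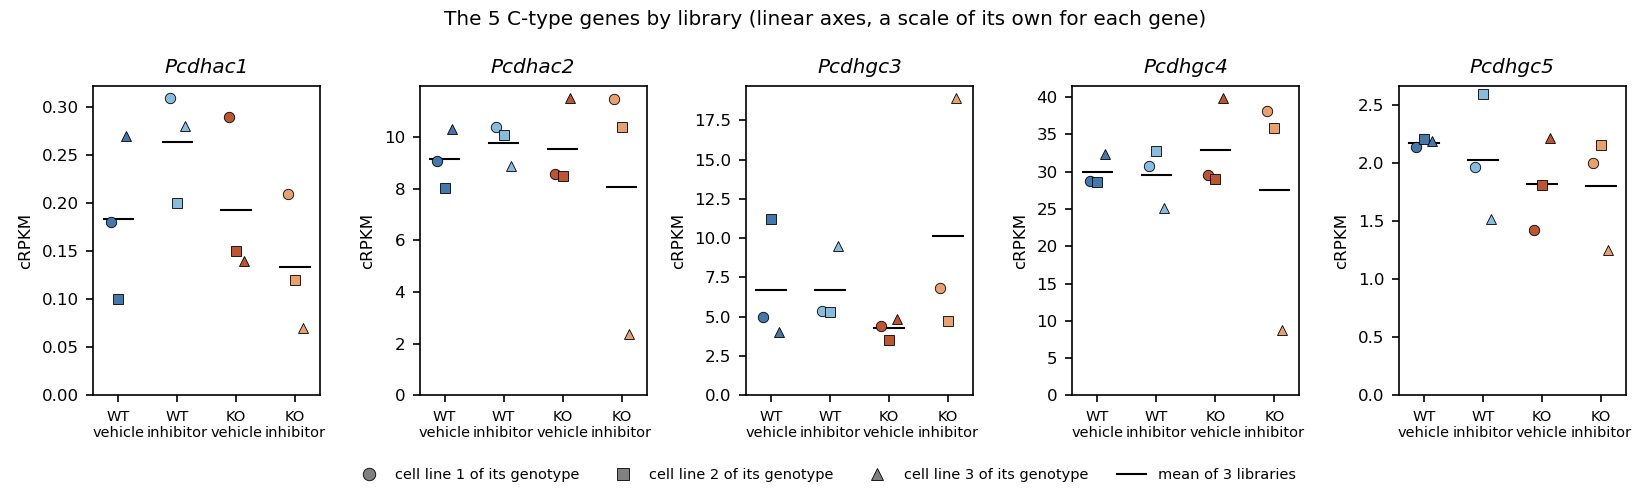
Level of each C-type gene in cRPKM (linear axis, separate scale per gene) in the 12 libraries by group; markers give the cell line and bars the mean of 3 libraries. Pcdhgc3 is high in WT vehicle line 2, WT inhibitor line 3 and KO inhibitor line 3, whereas Pcdhac2 and Pcdhgc4 are lowest in KO inhibitor line 3, at 2.37 and 8.77 cRPKM.

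Among the variable gamma genes, Pcdhgb6 was highest at 6.22 ± 1.71 cRPKM (SD, n = 12), followed by the A class genes Pcdhga5 at 5.34 ± 1.23, Pcdhga2 at 4.83 ± 0.974, Pcdhga7 at 4.30 ± 1.02 and Pcdhga3 at 4.10 ± 1.03 cRPKM. The other B class genes were lower, with Pcdhgb4 at 2.51, Pcdhgb7 at 2.11 and Pcdhgb5 at 1.31 cRPKM. Means within the A class spanned a 10.7-fold range and those within the B class an 8.05-fold range, compared with 33.6-fold in beta and 145-fold in the variable alpha genes. Across genes, Pearson's r between place in the array and log2 mean cRPKM was -0.66 over the 12 A genes and 0.68 over the 6 B genes. These 2 values have opposite signs and were not tested, and among the few B genes Pcdhgb6 stood far above the others. For the 12 variable alpha genes r was -0.35 and for the 22 beta genes 0.12. These values describe genes that share libraries and are not replicates.

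Over all members, 44 of 57 had a mean of at least 1 cRPKM, 9 of at least 5 and 1, Pcdhgc4, of at least 10. Counts were at least 10 in every library for 51 members. Of the 56 pairs of neighbours in the order of means, 2 had the same order in all 12 libraries, Pcdhgc4 above Pcdhac2 and Pcdhb1 above Pcdha8. Pcdha5 exceeded the next gene, Pcdhb9, in 5 of 12 libraries, and Pcdhga2 exceeded the next, Pcdhb7, in 6 of 12.

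Summed over its genes, each cluster kept a similar level in 11 of the 12 libraries. The alpha cluster was at 95.2, 86.9 and 120.3 CPM in WT vehicle lines 1 to 3, at 112.5, 107.6 and 87.97 in WT inhibitor, at 100.5, 94.2 and 123.4 in KO vehicle, and at 118.5, 112.0 and 21.1 in KO inhibitor. The groups overlapped in each comparison for all 3 sums. The gamma sum was 195.6 to 272.5 CPM and the beta sum 136.3 to 185.1 CPM in the 11 libraries. KO inhibitor line 3 was below these ranges for each cluster, at 128.8 CPM for gamma and 68.4 CPM for beta. The CPM here are scaled by edgeR's trimmed mean of M-values (TMM), and compare libraries, not genes.

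**Figure D2:**
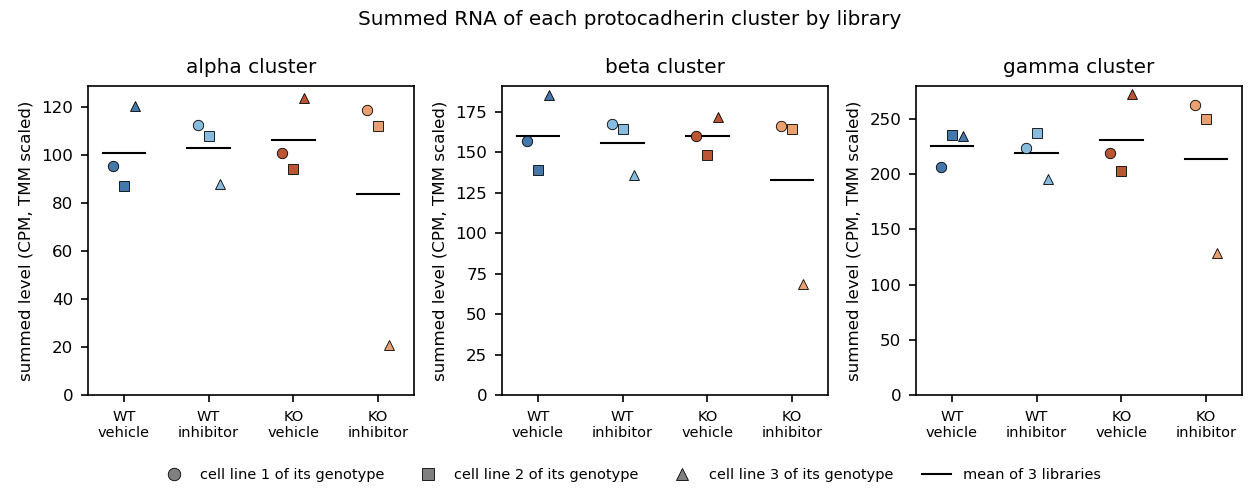
Summed level of the alpha, beta and gamma clusters in TMM-scaled CPM (linear axis from 0) in each of the 12 libraries by group; markers give the cell line and bars the mean of 3 libraries. The groups overlap, and KO inhibitor line 3 lies below the other 11 libraries in each panel, at 21.1 CPM for alpha.

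KO over WT, the log2 ratio of mean alpha sums was 0.07 in vehicle and -0.29 with inhibitor, and the latter was 0.17 without KO inhibitor line 3. For beta the ratios were -0.002 and -0.23, the latter 0.08 without that library. For gamma they were 0.04 and -0.03, the latter 0.23 without that library. In WT neurons, inhibitor over vehicle gave log2 ratios of 0.03 for alpha, -0.04 for beta and -0.04 for gamma. In KO neurons it gave -0.34, -0.27 and -0.11, and 0.12, 0.05 and 0.15 without KO inhibitor line 3. The direction of the summed clusters in every comparison that uses KO inhibitor thus turned with that library. Without all 3 libraries named above, KO over WT gave -0.02 for alpha, -0.10 for beta and 0.07 for gamma in vehicle, and 0.07, -0.0057 and 0.15 with inhibitor. Inhibitor over vehicle in WT neurons then gave 0.03, -0.04 and 0.07. The ratios that do not use KO inhibitor were near 0 and crossed it as well when single libraries were left out, as for alpha in vehicle, where KO over WT ran from -0.05 without KO vehicle line 3 to 0.22 without WT vehicle line 3.

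Isoform choice was described by the share of each gene in the summed cRPKM of its cluster. In the alpha cluster the leading gene was Pcdhac2 in 8 libraries, Pcdha4 in 3 and Pcdha3 in 1, with leading shares of 18.2% to 22.1%. The effective number of genes, the number of equally used genes that would give the same Shannon diversity, was 8.41 to 9.06 of 14. In the gamma cluster Pcdhgc4 led with 31.4% to 37.5% in 11 libraries, and the effective number was 11.1 to 12.4 of 21. In beta the effective number was 16.9 to 18.2 of 22. Among the variable genes alone it was 7.49 to 8.24 of 12 in alpha and 14.5 to 15.7 of 18 in gamma.

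In beta, KO lines 2 and 3 had another leading gene by cRPKM than the other lines, by narrow margins. Pcdhb9 led in all 6 WT libraries and in both libraries of KO line 1. In KO line 2, Pcdhb11 led in both libraries, with 10.5% in vehicle and 9.47% in inhibitor. The second genes there were Pcdhb9 with 10.4% and Pcdhb7 with 8.95%. In KO line 3, Pcdhb7 led in vehicle with 10.0% and Pcdhb11 in inhibitor with 11.3%. Second there were Pcdhb11 with 9.23% and Pcdhb9 with 10.8%. Whether these leads exceed counting error was not tested. They also depend on the length scaling. By counts, Pcdhb11 was above Pcdhb9 in the WT means too, with 409.3 against 360.7 in vehicle and 409 against 381 in inhibitor. The share of Pcdhb9 was 11.8% to 13.7% in the 6 WT libraries, 11.9% and 11.2% in KO line 1, 10.4% and 8.18% in KO line 2, and 7.53% and 10.8% in KO line 3. By line means, the WT lines had 12.8%, 12.3% and 12.7% and the KO lines 11.5%, 9.27% and 9.15%.

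Pcdhb11 and Pcdhga2 were the members whose shares did not overlap between the 6 WT and the 6 KO libraries. Pcdhb11 held 8.10% to 9.13% of beta in WT and 9.23% to 11.3% in KO libraries. Pcdhga2 held 4.56% to 5.24% of gamma in WT and 5.56% to 6.32% in KO libraries. Both therefore had a slightly larger measured share of their cluster in every KO library. For Pcdhb11 the ranges nearly touch, at 9.13% and 9.23%, and counting error was not weighed here. Of the variable genes alone, Pcdhga2 held 8.02% to 9.72% in WT and 9.52% to 13.2% in KO libraries, which overlap. These 2 genes were picked from 57 after their shares were seen and have no test. A smaller share of Pcdhb9 raises the other beta shares by construction. Summed markers of mesenchymal cells also split the genotypes, at 100.6 to 1111 CPM over the 6 WT and 24.66 to 98.87 CPM over the 6 KO libraries. These ranges nearly touch as well. Of the single markers, Col3a1 and Dcn did not overlap between the genotypes, whereas Col1a1, Col1a2, Lum and Pdgfrb did. Col1a1, for example, was at 37.35 CPM in WT vehicle line 3 and at 44 CPM in KO vehicle line 3. In vehicle, summed GABAergic markers were at 470.9 to 503.9 CPM in WT and 586.5 to 665.5 CPM in KO libraries. With inhibitor these sums overlapped, at 469.9 to 561.5 CPM in WT and 219.6 to 642.2 CPM in KO libraries. In vehicle, Gad1, Gad2 and Slc32a1 did not overlap between the genotypes, whereas Dlx1, Dlx2 and Lhx6 did. The part of these markers in the shares was not tested.

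**Figure D3:**
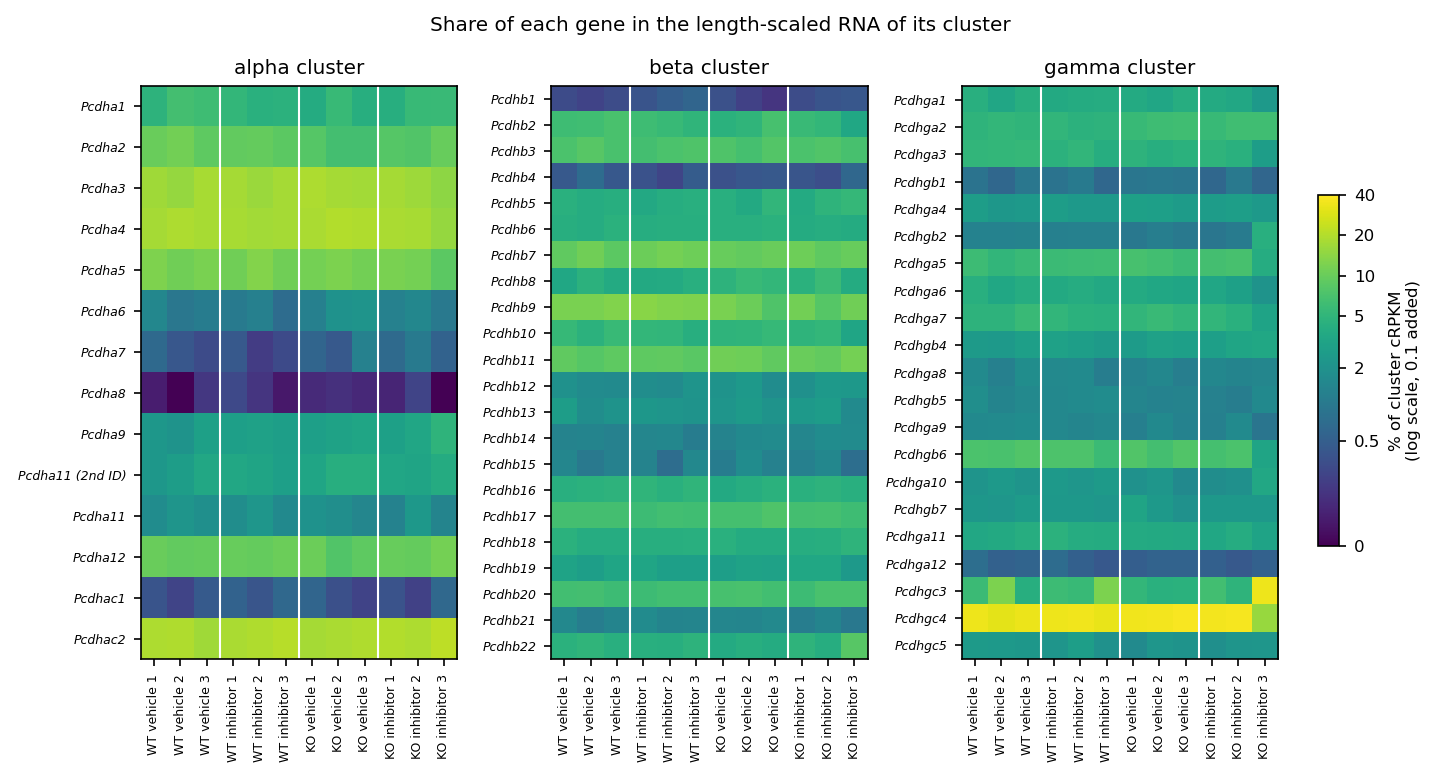
Share of each gene in the summed cRPKM of its cluster (percent, log colour scale with 0.1 added) for the 57 members in chromosomal order (rows) and the 12 libraries (columns, cell lines 1 to 3 within each group). In KO inhibitor line 3, Pcdhgc3 holds 34.0% of gamma and Pcdhgc4 15.8%, whereas Pcdhgc4 holds 31.4% to 37.5% in the other 11 columns; the row marked 2nd ID is the second identifier named Pcdha11.

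The spread of shares between libraries was not far above counting error for most genes. Over the 11 libraries other than KO inhibitor line 3, the SD of a gene's share of counts was a median of 1.41 times the binomial SD in alpha, 1.34 times in beta and 1.46 times in gamma. It was more than 2 times the binomial SD for Pcdha2 in alpha, for Pcdhb2, Pcdhb8 and Pcdhb9 in beta and for Pcdhgc3, Pcdhgc4 and Pcdhga2 in gamma. Pcdhgc3 had the largest ratio, 9.74, which was 2.93 over the 9 libraries that exclude WT vehicle line 2 and WT inhibitor line 3 as well. Pcdhb9 had 3.29 and 3.69. The binomial SD and the intervals from counts cover counting error only.

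Isoform shares were also compared between whole libraries. The distance between libraries was taken as 0.5 times the summed absolute difference of shares over all members, in percentage points, over the 9 libraries without the 3 named above. Its median was 4.81 points for 3 pairs from the same line, 4.82 for 13 pairs from different lines of a genotype and 6.15 for 20 pairs from different genotypes, with ranges of 3.997 to 4.96, 3.50 to 6.38 and 4.95 to 7.51. Within single clusters the same 3 medians were 3.84, 4.28 and 4.72 points for alpha, 4.43, 4.86 and 6.75 for beta and 2.87, 3.78 and 5.28 for gamma. Among these 9 libraries, pairs from the same line thus had the lowest median in each cluster. Their ranges overlapped those of different lines of a genotype, for example 2.81 to 3.84 against 2.35 to 4.77 points in gamma. For the variable alpha genes alone the median was 4.50 points for the same line and 4.42 for different lines of a genotype. Leaving out KO inhibitor line 3 only, alpha had 4.97 and 4.67 points, while beta and gamma kept the order. With all 12 libraries alpha had 5.03 and 4.99 points and gamma 5.987 and 4.585, while beta kept the order. Over all 12 libraries, the library nearest in share over all members was the one from the same line for 1 library. Pairs share libraries and no test was made of these distances.

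KO inhibitor line 3 stood apart in both level and choice. It was the lowest of 12 libraries for 51 of 57 members, against 39.0% of all tested genes, and the highest for 2, against 38.4% of all tested genes. The 2 highest were Pcdhgc3 and Pcdhgb2. Pcdhgc3 had 1435 counts there, or 45.6 CPM, 3.08 times the mean of KO inhibitor lines 1 and 2. Pcdhgb2, with 128 counts or 4.07 CPM, was 2.16 times that mean. Alpha members were lowest relative to those lines, for example Pcdha5 at 0.136 and Pcdha4 at 0.150 times their mean, whereas Pcdhga10 was at 0.975 and Pcdhb22 at 0.754.

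**Figure D4:**
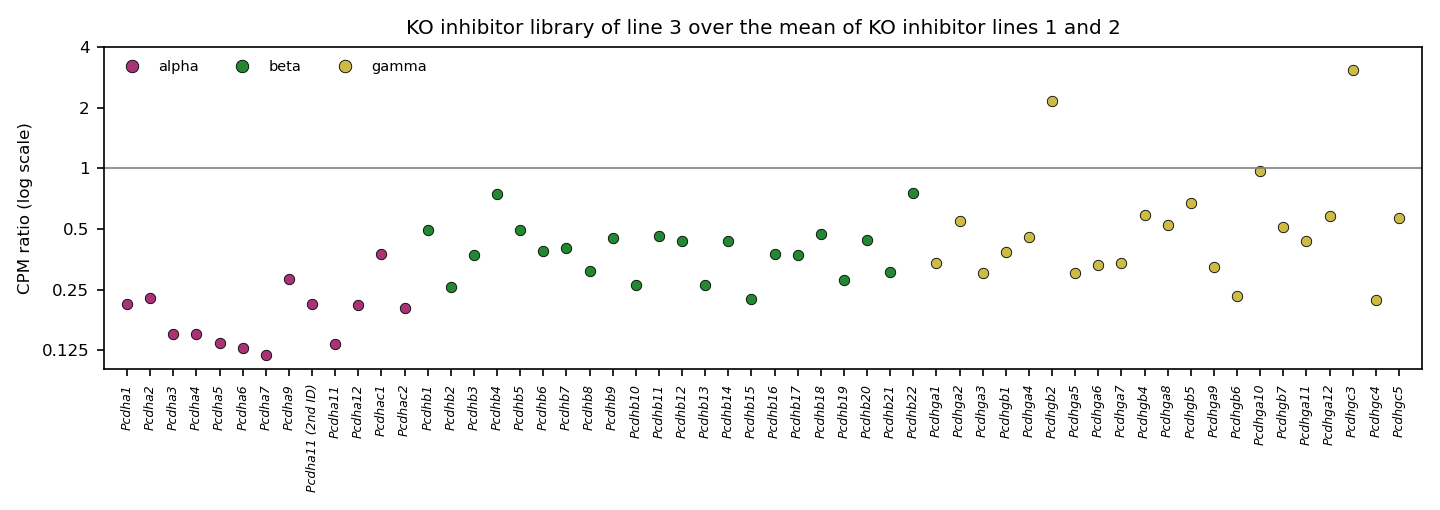
CPM in KO inhibitor line 3 over the mean of KO inhibitor lines 1 and 2 (log axis) for each member with at least 10 counts in some library, in chromosomal order and coloured by cluster; the line marks equal levels. The alpha members lie between 0.118 and 0.375, while Pcdhgb2 at 2.16 and Pcdhgc3 at 3.08 lie above 1.

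In that library Pcdhgc3 made up 34.0% of gamma cRPKM and Pcdhgc4 15.8%. By counts the share of Pcdhgc3 was between 34.0% and 36.9% (95% Wilson interval), against 11.8% to 13.5% in WT vehicle line 2 and 11.7% to 13.4% in WT inhibitor line 3. In the remaining 9 libraries the share of Pcdhgc3 was 4.16% to 6.47% of gamma cRPKM. Markers of other cell types moved with this. All 6 astrocyte markers in KO inhibitor line 3 exceeded the 9 other libraries, with a sum of 1189 CPM against 58.11 to 233.2 CPM, and 4 of 6 oligodendrocyte lineage markers did, with 554.6 CPM against 24.4 to 68.6 CPM, of which Pdgfra made up 509.5 CPM. All 7 pan-neuronal markers in it were below those 9. No marker of these lists was at 0 in it, and their part in the protocadherin levels was not tested.

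The comparison of KO with WT in vehicle asks what the lack of the Daam1 microexon does without the inhibitor. No member passed an adjusted p of 0.05 in edgeR's quasi-likelihood test with Benjamini-Hochberg adjustment, as was the case for 0% of the 15443 genes tested. At an unadjusted p below 0.05, no member passed and 1.99% of all genes did, and DESeq2 called no member. Of the 56 members tested, 30 were higher and 26 lower in KO, with a median log2 fold change of 0.03 against -0.01 over all genes tested. This split turned with single libraries. It was 23 higher and 33 lower without WT vehicle line 2, with a median of -0.07, as well as without all 3 named libraries. It was 21 and 35 without KO vehicle line 3, 27 and 29 without WT vehicle line 1, and 39 and 17 without WT vehicle line 3, with a median of 0.12. Pcdha8 was left out by the filter on low counts. The standard error of a member's log2 fold change had a median of 0.36, or 0.19 without KO inhibitor line 3.

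Pcdhb22 and Pcdhb4 had the smallest p in this comparison. Pcdhb22 was at 12.01, 11.9 and 13.6 CPM in WT vehicle and at 10.6, 10.6 and 11.3 CPM in KO vehicle, without overlap. Its log2 fold change was -0.21 ± 0.16 (SE; edgeR adjusted p = 0.999). Pcdhb4, with 13 to 24 counts in these libraries, had -0.38 ± 0.29 (edgeR adjusted p = 0.999), and -0.20 without WT vehicle line 2. Without overlap between the groups, 2 members were higher in KO, where 7.62% of all genes tested were, and 2 were lower, where 4.90% were. These are Pcdhb8 and Pcdhga4, which were higher, and Pcdhb22 and Pcdha2, which were lower. Pcdhb8 was at 3.68, 4.40 and 4.83 CPM in WT vehicle and at 5.23, 5.71 and 6.001 in KO vehicle. Pcdha2 was at 8.64, 8.57 and 9.70 CPM in WT vehicle and at 7.28, 5.54 and 7.26 in KO vehicle.

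With inhibitor, the comparison of KO with WT again called no member, and 0% of all genes tested, at an adjusted p of 0.05 in edgeR, and DESeq2 called no member. No member and 3.50% of all genes had an unadjusted p below 0.05. Of 56 members, 10 were higher and 46 lower in KO, with a median log2 fold change of -0.20 against -0.000497 over all genes. Without KO inhibitor line 3 the same comparison had 44 higher and 12 lower, with a median of 0.16, and no member called. The direction of most members therefore depended on that library.

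The smallest p values belonged to Pcdhb9 and Pcdhac1. Pcdhb9 was at 14.7, 13.6 and 10.9 CPM in WT inhibitor and at 11.8, 8.47 and 4.55 CPM in KO inhibitor, groups that overlap, and its fitted log2 difference was -0.66 ± 0.32 (SE; edgeR adjusted p = 0.856). Unlike the median member, Pcdhb9 remained lower in KO without KO inhibitor line 3, at -0.37, and was at -1.01 without KO inhibitor line 1. Pcdhac1 had -1.01 ± 0.50 (edgeR adjusted p = 0.856), from 14 to 24 counts in WT inhibitor and 5 to 17 in KO inhibitor, and -0.60 without the 3 named libraries. With all libraries, no member was higher without overlap, where 3.51% of all genes were, and 2 members were lower, Pcdhb1 and Pcdhga10, where 7.03% of all genes were.

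Without KO inhibitor line 3, 17 members were higher in KO inhibitor than in every WT inhibitor library, where 17.1% of all genes were, and 2 were lower, where 19.6% were. The 17 include Pcdhgc4, at 109.9 and 105.3 CPM in KO inhibitor lines 1 and 2 and 88.7, 96.1 and 73.6 CPM in WT inhibitor, and Pcdhga2, at 14.3 and 15.3 CPM against 10.9, 10.6 and 8.99 CPM. Also among them is Pcdhac2, at 34.4 and 31.8 CPM against 31.3, 30.7 and 27.0 CPM. WT inhibitor line 3, one of the libraries with fewer pan-neuronal transcripts, was the lowest of the WT libraries for each of these 3 genes. Without all 3 named libraries, 36 members were higher and 20 lower in KO inhibitor, with a median of 0.11. Without overlap, 17 were then higher, where 22.3% of all genes were, and 10 were lower, where 26.8% were.

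**Figure D5:**
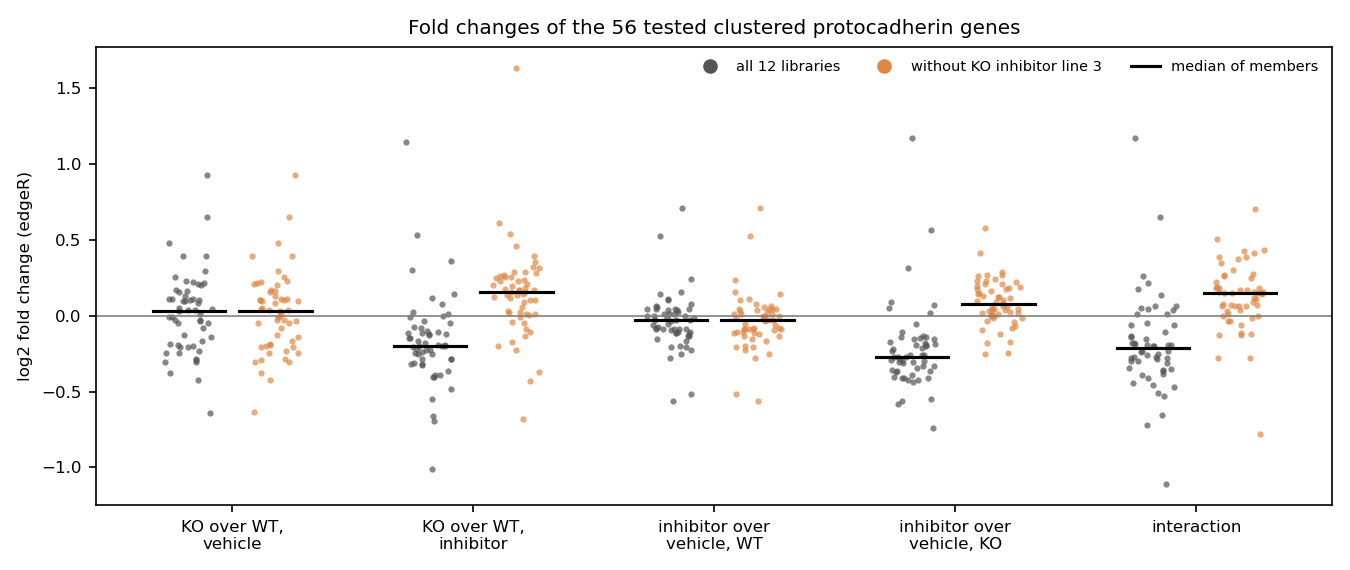
Log2 fold change of the 56 tested members in 5 comparisons from the edgeR fit, with all 12 libraries (grey) and without KO inhibitor line 3 (orange); points are genes, spread sideways at random, and bars are medians. In the 3 comparisons that use KO inhibitor the median changes sign when that library is left out, for example from -0.27 to 0.07 for inhibitor over vehicle in KO neurons.

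The comparison of inhibitor with vehicle asks what 2 h of ROCK inhibition does to these genes in each genotype. In WT neurons edgeR called no member and 0% of all genes at an adjusted p of 0.05, DESeq2 called no member, and no member and 0.304% of all genes had an unadjusted p below 0.05. Of 56 members, 21 were higher and 35 lower, with a median log2 fold change of -0.03 against 0.01 over all genes. Here too the split turned with single libraries, to 39 higher and 17 lower without WT inhibitor line 3, with a median of 0.05, and to 38 and 18 without WT vehicle line 3. It was 9 and 47 without WT vehicle line 2, with a median of -0.13, and 20 and 36 without the 3 named libraries. Pcdhb4 had 0.619, 0.935 and 0.718 CPM in vehicle and 0.559, 0.374 and 0.595 CPM in inhibitor, which is -0.56 ± 0.29 on the log2 scale (SE; edgeR adjusted p = 1). Pcdhb1 had 7 to 14 counts in vehicle and 15 to 20 in inhibitor, which is 0.71 ± 0.39 on that scale (edgeR adjusted p = 1), and 0.45 without the 3 named libraries. These were the members without overlap, 1 lower, where 2.93% of all genes were, and 1 higher, where 3.04% were. Both are at the bottom of the beta cluster in level.

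In KO neurons edgeR called no member and 0% of all genes at an adjusted p of 0.05, and DESeq2 called no member, while no member and 7.05% of all genes had an unadjusted p below 0.05. Of 56 members, 7 were higher with inhibitor and 49 lower, with a median log2 fold change of -0.27 against -0.02 over all genes. Without KO inhibitor line 3, 43 were higher and 13 lower, with a median of 0.07. Pcdhgc3 was at 11.7, 9.09 and 12.6 CPM in KO vehicle and at 17.3, 12.3 and 45.6 CPM in KO inhibitor, which is 1.17 ± 0.54 on the log2 scale (SE; edgeR adjusted p = 0.474). It was higher with inhibitor in all 3 KO lines, but the groups overlap, and without KO inhibitor line 3 its log2 fold change was 0.41. Pcdhgb2 had 0.56 ± 0.32 (edgeR adjusted p = 0.474), and 0.10 without that library. Pcdhga10, at 4.36, 4.50 and 4.43 CPM in vehicle and at 4.63, 4.77 and 4.58 CPM in inhibitor, was the member higher without overlap, where 3.19% of all genes were, and no member was lower, where 5.65% were. Without KO inhibitor line 3, 7 members were higher without overlap, where 5.52% of all genes were, and none was lower, where 8.41% were.

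Whether the inhibitor acted differently in the genotypes was tested by the interaction term of the same fit. No member and 0% of all genes had an adjusted p below 0.05 in edgeR, DESeq2 called no member, and no member and 1.20% of all genes had an unadjusted p below 0.05. Pcdhac1 had an interaction of -1.11 ± 0.71 (SE; edgeR adjusted p = 0.808) and Pcdhgc3 one of 1.17 ± 0.76 (edgeR adjusted p = 0.808) on the log2 scale. For Pcdhac1 it ran from -1.59 without KO inhibitor line 1 to -0.67 without KO vehicle line 1 and was -0.43 without the 3 named libraries. The interaction of Pcdhgc3 was 0.41 without KO inhibitor line 3, 0.59 without WT vehicle line 2 and 0.16 without the 3 named libraries. Over the members the median was -0.22 with all libraries and 0.15 without KO inhibitor line 3.

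Summing the 2 libraries of each line gives a comparison of 3 KO with 3 WT lines over both treatments, over 16090 genes. Here edgeR called no member and 0% of all genes at an adjusted p of 0.05, and DESeq2 called no member. An unadjusted p below 0.05 was found for 2 members, Pcdha7 and Pcdhga2, which is 2 of 56 where 2.65% of all genes had one. Pcdha7 had a log2 difference of 1.06 ± 0.34 (SE; edgeR adjusted p = 0.998) from 2 to 22 counts per library, with 22 counts in KO vehicle line 3 and KO inhibitor line 2 and at most 14 elsewhere. Pcdhga2 had 0.32 ± 0.12 (edgeR adjusted p = 0.998), and its CPM overlapped between the 6 WT libraries, at 8.99 to 12.03, and the 6 KO libraries, at 8.08 to 16.6. Across 6 against 6 libraries no member was without overlap in CPM, where 0.285% of all genes were higher and 0.505% lower.

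An alternative chosen after the data were seen represented KO line 3 by its vehicle library alone. Then 10 members had an unadjusted p below 0.05, where 22.9% of all genes did, and no member was called at an adjusted p of 0.05, where 0.181% of all genes were. Of these members 9 were higher in KO, among them Pcdhga5 with a log2 difference of 0.31 ± 0.07 (SE; edgeR adjusted p = 0.123) and Pcdhgc4 with 0.29 ± 0.09 (edgeR adjusted p = 0.148). Pcdhb9 was the lower member, at -0.39 ± 0.15 (edgeR adjusted p = 0.189).

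Genes that act on or with the clusters were read from 3 lists. None of 20 regulators of cluster promoters, such as the insulator protein Ctcf, cohesin subunits and DNA methyltransferases, was called in any of the 6 comparisons by edgeR at an adjusted p of 0.05. Ctcf was at 59.8 to 70.9 CPM over all 12 libraries, including 70.8 CPM in KO inhibitor line 3, where the alpha sum was lowest. Dnmt3b, which methylates cluster promoters during development, was at 8.10, 5.85 and 10.1 CPM in WT vehicle line 2, WT inhibitor line 3 and KO inhibitor line 3, and at 0.941 to 2.75 CPM in the other 9. The repressor Rest was at 13.6, 13.5 and 34.9 CPM in those 3 libraries and at 3.53 to 8.74 CPM in the other 9. Regulators had a median log2 fold change of -0.04 in vehicle and 0.11 with inhibitor for KO over WT, with 7 of 20 and 14 of 20 higher, the latter 10 of 20 without KO inhibitor line 3.

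No gene of 18 partners and proteases was called in any comparison. This list holds, among others, kinases and WAVE complex members that bind protocadherin tails, and the protease Adam10, which cleaves them. Adam10 was at 602.5 CPM in KO inhibitor line 3, at 216.6 and 197.9 CPM in WT vehicle line 2 and WT inhibitor line 3, and at 52.1 to 109.4 CPM in the other 9. Of 12 non-clustered protocadherins, 11 were tested and none was called. All 11 were lower with inhibitor in KO neurons, with a median log2 fold change of -0.37, and 8 of 11 were higher without KO inhibitor line 3, with a median of 0.07. Their sum was 305 CPM in KO inhibitor line 3 and 985.3 to 1481 CPM in the other 11 libraries. The clustered and non-clustered genes thus both had their lowest sum in the same library.

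Genes outside the clusters were compared with the summed members on the log2 CPM scale. The 3 that followed the sum most closely over the 12 libraries were Trappc10 (Pearson's r of 0.9945), Xpr1 (0.9937) and Astn1 (0.9934). Over the 11 libraries without KO inhibitor line 3, they were Trappc10 (0.964), 9330182L06Rik (0.952) and Nrcam (0.951). These values describe libraries that share KO inhibitor line 3 or the cell lines. Not all members followed the others. Over the 12 libraries the correlation of a member with the other members, on log2 CPM, was -0.78 for Pcdhgb2 and -0.77 for Pcdhgc3. Over the 11 libraries it was 0.31 and -0.45.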

How the data were processed

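For each of 12 libraries of polyadenylated RNA the authors deposited a table of 36902 genes with a whole-number read count and a cRPKM value (an RPKM, a level scaled by gene length and depth) per Ensembl gene. The build is mm10 per the submitters' processing notes; aligner, counter and annotation are not given in the sources used here. The libraries were strand-specific per the labels' protocols. Symbols and positions come from GENCODE M21, and 33371 of 33560 genes with counts matched a symbol. The deposited counts were tested with edgeR 4.0.16 (quasi-likelihood, TMM scaling, filterByExpr, robust) in R 4.3.3, with all 12 libraries in 1 fit; the line comparison used summed counts per line. DESeq2 1.42.0 was an alternative. The fits were tested on simulated data. Calls used a Benjamini-Hochberg adjusted p of 0.05. The deposited cRPKM was used to compare genes and for shares. CPM compares libraries.

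Vehicle and inhibitor libraries are paired by cell line, per the labels. Their deviations from the group means correlated at 0.411, -0.553 and -0.723 in WT and at -0.191, 0.574 and -0.373 in KO lines. WT and KO lines share a number only; same-numbered WT and KO libraries correlated at 0.38, 0.649 and 0.795 with inhibitor and at -0.35, -0.649 and 0.167 in vehicle. Replicates are cell lines. In the main fit, p-values measure the spread between the libraries of a group, each from another line. That fit does not model the pairing of the 2 libraries of a line, which the alternative with the replicate block does for the treatment comparisons.

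The members and lists were chosen with earlier results of these data known. Levels are named for the C-type genes and the 4 highest of each other class, fold changes for the 2 smallest p per comparison and for called members, list genes where called or as counts. Other genes were named after their values were seen, among them Dnmt3b, Rest and Adam10. No sequence is printed.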

Additional observations from a re-analysis of the deposited data

Results flagged for a closer look

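Pcdhac1 was higher with inhibitor in all 3 WT lines and lower in all 3 KO lines, and the mean log2 change of the KO lines minus that of the WT lines was -1.12. It had 5 to 24 counts per library. The interaction term of the edgeR fit, -1.11 ± 0.71 (SE; adjusted p = 0.808), did not pass the threshold, and it ran from -1.59 without KO inhibitor line 1 to -0.67 without KO vehicle line 1. The other named members and the 3 cluster sums had no such split between genotypes. With 3 libraries per group, no formal test for a single outlying library within a group was made. Each library was left out in turn, and KO inhibitor line 3 was compared with the other libraries as described above.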

How the results depend on the processing

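No member was called in any of 103 fits, and the lowest adjusted p of a member over them was 0.123. Over all genes, where the edgeR fit called 0 in each comparison, DESeq2 called 11 for KO against WT in vehicle, 18 with inhibitor and 87 for the line sums. Without the 3 libraries that stand apart the counts were 2, 1 and 2 for the same comparisons. For the line sums, testing without the filter called 2 and KO line 3 by its vehicle library alone called 29. Leaving out each library in turn gave 0 calls. The cause of these differences in calls was not tested. The fit with the replicate block (cell line for the treatment comparisons, shared number for the genotypes) called 0 members and 0 genes and changed no call. The 12 fold changes named by smallest p kept their direction under every alternative run. The log2 differences of the cluster sums moved by less than the spread between libraries under library totals, cRPKM and each left-out library, although left-out libraries changed the sign of every one of them. The ranges over left-out libraries were, for KO over WT in vehicle, -0.0499 to 0.22 for alpha, -0.0954 to 0.114 for beta and -0.0963 to 0.126 for gamma, and for inhibitor over vehicle in WT -0.0693 to 0.174, -0.133 to 0.0769 and -0.104 to 0.034. By shares of counts in place of cRPKM, the effective number was 7.99 for alpha and 10.4 for gamma, and the mean shares of Pcdhac2 and Pcdhb9 were 28.5% and 7.21%; counts weight longer genes more. Depth limits Pcdha7, Pcdha8, Pcdhac1, Pcdhb1 and Pcdhb4, which had at most 24 counts in a library.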
